A study of Mus musculus with 576 samples.

Results

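The genes described here are 10 proteoglycans of the extracellular matrix and the cell surface, Dcn, Lum, Bgn, Ogn, Vcan, Gpc3, Gpc6, Sdc1, Sdc2 and Sdc4. They were chosen by symbol, and all 10 were found in each of the 3 deposited count tables, which list 36658 gene identifiers. The tables hold Smart-seq2 profiles, a plate method that reads cDNA along the whole transcript, of 576 single GFP+ cells sorted from mouse dorsal pancreas at embryonic day 12.5. Each of 3 lines gave 2 plates of 96 wells. In the Nkx2.5-Cre;mTmG line (plates 6A and 6B) and the Nkx3.2-Cre;mTmG line (plates 7A and 7B), Cre turns on membrane GFP in cells that expressed the driver and in their descendants, so GFP records history rather than current expression of either driver. In the Prox1-GFP line (plates 8A and 8B), GFP reports a gene used by pancreatic epithelium and by some other cells. The labels give no treatment for any line. Embryo, litter and sex are not in the labels. Each line was therefore treated as a single sample and no test was run. Intervals on shares of cells describe the counting of these cells alone. Line and plate cannot be told apart, and for Prox1-GFP neither can the library series, which was numbered apart from that of the other lines.

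Proteoglycans are core proteins that carry long sulphated sugar chains. Decorin, lumican, biglycan and osteoglycin are small leucine-rich proteins of the matrix that bind collagen or growth factors, and versican is a large chondroitin sulphate proteoglycan that binds hyaluronan. Glypicans are held on the cell surface by a lipid anchor and syndecans by a membrane span, and the heparan sulphate on both binds growth factors such as FGFs and Wnts at the interface of epithelium and mesenchyme.

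Filters on counts, genes and mitochondrial share left 549 cells, with 224814 to 1512736 estimated counts each and a median of 901156. Levels are given as CPM, the counts of a gene per 1000000 counts. By markers at 10 CPM or more, 87 cells were epithelial, 20 endocrine, 27 mesothelial and 414 mesenchymal, and 1 cell had no state. All epithelial and endocrine cells came from the Prox1-GFP line and all mesothelial cells from the Cre lines (5 from Nkx2.5 and 22 from Nkx3.2), while 77 mesenchymal cells came from Prox1-GFP and the others from the Cre lines in nearly equal numbers. The states were assigned from these markers, so their levels describe the states and do not test them. The 7 epithelial markers summed to 3219 CPM in epithelium and 4.94 CPM in mesenchyme, and Upk3b, an uroplakin of mesothelium, reached 591 CPM in mesothelial cells. Msln, another mesothelial marker, was near 0 even there, at 1.1 CPM, Foxf1 stood at 0.5 CPM in mesenchyme, and mesothelial cells also held 1901 CPM of mesenchymal markers. Their 181.7 CPM of epithelial markers were Spint2 (157.3 CPM) and Epcam (24.4 CPM), with the other 5 at 0. Of the 4 endothelial markers, Cdh5 had no count in any state, and Pecam1 was at 32.6 to 46.5 CPM in all 4. Intervals below are exact at 95% and cover counting error only, since reads carry no molecular identifiers and PCR copies are counted.

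Upstream sequences were taken from RefSeq (GRCm38.p6), as the 250 bases before the transcription start. The promoter table held 6 of the 10 members (Bgn, Ogn, Vcan, Gpc3, Sdc1 and Sdc4), and it held no entry for Dcn, Lum, Gpc6 or Sdc2. The windows of 4 genes are shown because their genes mark the contrasts described next: Bgn and Vcan, low outside mesenchyme, Ogn, found in few cells, and Sdc4, highest in epithelium. They lie at chrX:73483351-73483600 (Bgn, + strand), chr13:89742513-89742762 (Vcan, − strand), chr13:49607765-49608014 (Ogn, + strand) and chr2:164443189-164443438 (Sdc4, − strand), and are written in the direction of transcription. Capitals mark GGGCGG (the GC box), TATAAA (the TATA box) and CATTCC (a motif of TEAD factors) on either strand.
Bgn: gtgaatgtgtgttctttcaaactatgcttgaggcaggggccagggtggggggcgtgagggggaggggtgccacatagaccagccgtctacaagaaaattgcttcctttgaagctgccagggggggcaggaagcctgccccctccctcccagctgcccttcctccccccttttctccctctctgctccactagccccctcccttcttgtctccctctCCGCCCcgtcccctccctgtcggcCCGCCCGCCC
Vcan: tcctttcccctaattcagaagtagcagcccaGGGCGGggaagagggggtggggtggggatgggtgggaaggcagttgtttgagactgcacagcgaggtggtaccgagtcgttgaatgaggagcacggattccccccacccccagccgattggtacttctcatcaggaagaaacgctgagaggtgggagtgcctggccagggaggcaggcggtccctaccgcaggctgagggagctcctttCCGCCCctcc
Ogn: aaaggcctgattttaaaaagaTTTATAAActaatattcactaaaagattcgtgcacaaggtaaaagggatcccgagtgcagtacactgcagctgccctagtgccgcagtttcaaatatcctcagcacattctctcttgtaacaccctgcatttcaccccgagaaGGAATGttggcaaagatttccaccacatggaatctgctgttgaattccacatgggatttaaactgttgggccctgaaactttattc
Sdc4: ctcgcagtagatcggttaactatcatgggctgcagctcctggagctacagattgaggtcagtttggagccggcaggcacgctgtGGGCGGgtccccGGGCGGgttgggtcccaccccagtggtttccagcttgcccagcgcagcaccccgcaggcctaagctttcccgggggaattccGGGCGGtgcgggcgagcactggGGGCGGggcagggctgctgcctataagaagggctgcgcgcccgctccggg

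Matches were searched on both strands over all 32851 windows of this length. The letters TATAAA occurred in 12.4% of them and the GC box in 32.7%. The letters CATTCC occurred in 12.6%, the AP-1 motif TGANTCA in 6.75% and the EGR motif GCGGGGGCG in 2.57%. GC boxes numbered 3 in Bgn, 2 in Vcan, 3 in Gpc3, 3 in Sdc1 and 4 in Sdc4. Ogn held none, and its letters gave 2 overlapping TATAAA matches, one on each strand, about 220 bases from the start, with 1 CATTCC match 80 bases from it. None of the 6 windows held TGANTCA or GCGGGGGCG, which says only that those letters are not in them. Ogn also had the lowest GC content of the 6 at 42%, against 62.4% in Vcan, 64.4% in Bgn, 66% in Sdc1, 68% in Sdc4 and 71.6% in Gpc3, with a median of 52.4% over all windows. The RefSeq start of Sdc4 lies 699 bases inside that of GENCODE M21, and the Sdc1 window overlaps annotated exons and is not shown.

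Per kilobase of longest transcript, which allows genes to be set beside each other, Gpc3 led in every state, with 1444 CPM per kb in mesenchyme, 903 in mesothelium, 659 in epithelium and 107.1 in endocrine cells. The next in line changed with the state. In epithelium Sdc4 followed at 122.2 CPM per kb and Sdc1 at 51.7, and in mesothelium Dcn followed at 210 and Sdc4 at 66.7. In mesenchyme Bgn (53.5), Sdc1 (49.6), Dcn (48.4) and Gpc6 (46.7) lay close together, and their order changed when the median transcript length was used. Summed over all 10 members, they took 0.391% of counts in mesenchyme, 0.278% in mesothelium, 0.198% in epithelium and 0.0293% in endocrine cells, and Gpc3 alone gave 81.9%, 72.02%, 73.8% and 81.1% of these.

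**Figure D1:**
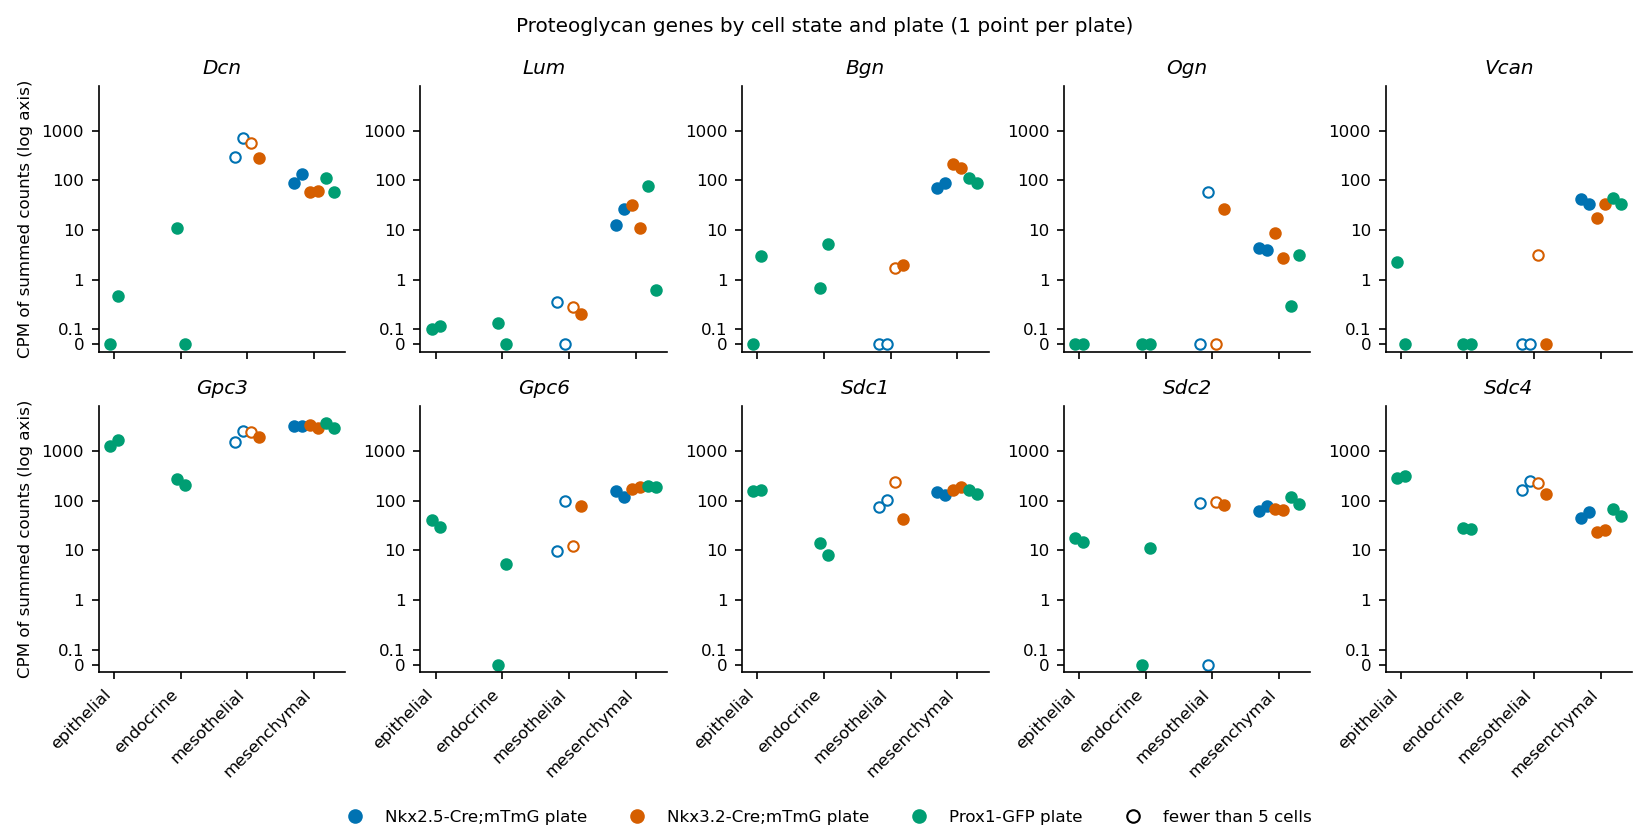
CPM of each member (log axis, zeros at the bottom) in the summed cells of each plate, by state, with open points for groups under 5 cells. Bgn and Vcan sit high in mesenchyme alone, Dcn is highest in mesothelium, Sdc4 is high in epithelium and mesothelium, and Gpc3 is high in all states but lower in endocrine cells.

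Decorin, which binds collagen fibrils and limits TGF-beta signalling, was at 85.1 CPM in mesenchyme (84.2 to 86.03), 370 CPM in mesothelium (362 to 378), 0.217 CPM in epithelium and 4.95 CPM in endocrine cells. By plate, mesenchyme held 88.3 and 132.4 CPM of Dcn in plates 6A and 6B, 59.3 and 60.2 in 7A and 7B, and 111.1 and 57.8 in 8A and 8B, and mesothelium 294, 714, 574 and 284 CPM in 6A, 6B, 7A and 7B, so the plates of the 2 states did not overlap. These mesothelial plates held only 3, 2, 3 and 19 cells, for Dcn and for every other member. In mesothelium 96.3% of cells (81.03 to 99.9) reached 10 CPM, with a median cell at 274 CPM, against 37.4% of mesenchymal cells (32.8 to 42.3), whose median was 0. Its endocrine and epithelial counts each came from 1 cell.

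Lumican, a keratan sulphate proteoglycan that organises collagen fibrils, was found in fewer cells. It stood at 22.9 CPM in mesenchyme and at 0.213, 0.109 and 0.0604 CPM in mesothelium, epithelium and endocrine cells, where no cell reached 10 CPM. Of the 414 mesenchymal cells 10.6% (7.83 to 14.004) did. Its mesenchymal levels by plate ran from 0.6 CPM (8B) to 77.5 CPM (8A), and that spread rests on few cells, since 1 cell held 74.1% of the Lum counts of the Prox1 mesenchyme and the level was 8.30 CPM without it, against 31.7 CPM with it.

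Biglycan, a chondroitin or dermatan sulphate proteoglycan with roles in matrix assembly and innate signalling, was at 129.4 CPM in mesenchyme (128.2 to 130.5) and at 1.49, 1.41 and 3.14 CPM in mesothelium, epithelium and endocrine cells. Its mesenchymal plates held 69.6 and 88.9 CPM (6A, 6B), 213 and 177.7 (7A, 7B) and 110.6 and 86.99 (8A, 8B). Every mesenchymal plate lay above every plate of the other states, where the highest was 5.2 CPM. Of mesenchymal cells 54.6% (49.7 to 59.5) reached 10 CPM, and 98.1% of the epithelial counts came from 1 cell.

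Osteoglycin, or mimecan, a small leucine-rich protein named for its activity on bone, was found in few cells. It was at 22.2 CPM in mesothelium (20.4 to 24.2), 4.69 CPM in mesenchyme and 0 counts in the 87 epithelial and 20 endocrine cells. A count of 0 in 87 cells, by the limit of 3 counts, allows a share of cells with a count of up to 3.45%. By plate, mesothelium gave 0 CPM in 6A and 7A, with 3 cells each, 57.3 in 6B, with 2 cells, and 26.2 in 7B, with 19, and mesenchyme 0.3 to 8.5 CPM, so the plates overlapped. Of the mesenchymal counts 31.6% came from 1 cell, and in the Nkx2.5 mesothelium 99.2% did.

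Versican was at 32.1 CPM in mesenchyme (31.6 to 32.7), 1.20 CPM in epithelium, 0.469 CPM in mesothelium and 0 counts in endocrine cells. Its 6 mesenchymal plates lay between 17.3 CPM (7A) and 45.1 CPM (8A), above every other plate, of which the highest was the 7A mesothelium at 3.2 CPM. It reached 10 CPM in 24.4% of mesenchymal cells (20.3 to 28.8), 4 of the 87 epithelial cells and no mesothelial cell, and the mesothelial counts were all in 1 cell.

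Glypican 3, a regulator of Hedgehog, Wnt and growth factor signalling whose loss in people causes overgrowth, was found in almost every cell. It was at 3199 CPM in mesenchyme, 2002 in mesothelium, 1460 in epithelium and 237 in endocrine cells, and 100% of cells in the first 3 states and 85% of endocrine cells (62.1 to 96.8) reached 10 CPM. The 6 mesenchymal plates ran from 2854 CPM (8B) to 3600 CPM (8A), above every epithelial plate (1237 and 1709) and every mesothelial one (1496 to 2568). The endocrine plates were the lowest, at 277 and 204 CPM.

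Glypican 6, of the same family, was at 162.9 CPM in mesenchyme, with plates from 118.1 CPM (6B) to 199 CPM (8A), 61.2 CPM in mesothelium, 35.3 in epithelium (40.8 and 29.3 by plate) and 2.84 in endocrine cells. Every mesenchymal plate was above every other. The share of cells at 10 CPM fell in the same order, from 73.4% (68.9 to 77.6) to 59.3% (38.8 to 77.6), 43.7% (33.1 to 54.7) and 5% (0.127 to 24.9).

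Syndecan 1, the main syndecan of many epithelia, was not set apart by epithelium here over all cells. Its level was 163.3 CPM in epithelium (159.7 and 167.3 by plate) and 156.6 CPM in mesenchyme (132.7 to 188.6), and these ranges overlapped. In Prox1-GFP cells with Mki67 or Top2a at 20 CPM or more, Sdc1 was at 213 CPM in epithelium and 123.4 CPM in mesenchyme. In the other Prox1-GFP cells the order was reversed, at 86.4 CPM in epithelium and 172.6 CPM in mesenchyme. Mesothelium held 81.8 CPM, with plates from 43.2 to 236, and endocrine cells 10.9 CPM, with 14.2 and 8.2 by plate. The share of cells at 10 CPM was 83.9% in epithelium (74.5 to 90.9), 71.7% in mesenchyme, 55.6% in mesothelium and 20% in endocrine cells.

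Syndecan 2, a syndecan typical of mesenchymal cells and of neurons, was at 72.98 CPM in mesenchyme (62.9 to 119.5 by plate), 76.5 CPM in mesothelium, 16.4 in epithelium (17.9 and 14.6) and 5.98 in endocrine cells (0 and 10.96). Each mesenchymal plate was above each epithelial and endocrine one. Mesothelial plates ran from 0 CPM in the 2 cells of 6B to 95.2 CPM in 7A and overlapped the mesenchymal ones, with 74.1% of mesothelial cells (53.7 to 88.9) and 48.1% of mesenchymal cells at 10 CPM.

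Syndecan 4, a syndecan of focal adhesions, was highest in epithelium. It was at 300 CPM in epithelium (296 to 304), 164.1 CPM in mesothelium (158.9 to 169.3), 41.8 CPM in mesenchyme and 27.4 CPM in endocrine cells. The epithelial plates (281 and 322 CPM) stood above the 4 mesothelial ones (135.6 to 251), which stood above the 6 mesenchymal ones (23.8 to 69.2). The endocrine plates (28.7 and 26.3 CPM) lay within the mesenchymal range. It reached 10 CPM in 97.7% of epithelial cells (91.9 to 99.7), 92.6% of mesothelial cells (75.7 to 99.1), 43.7% of mesenchymal cells and 35% of endocrine cells.

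**Figure D2:**
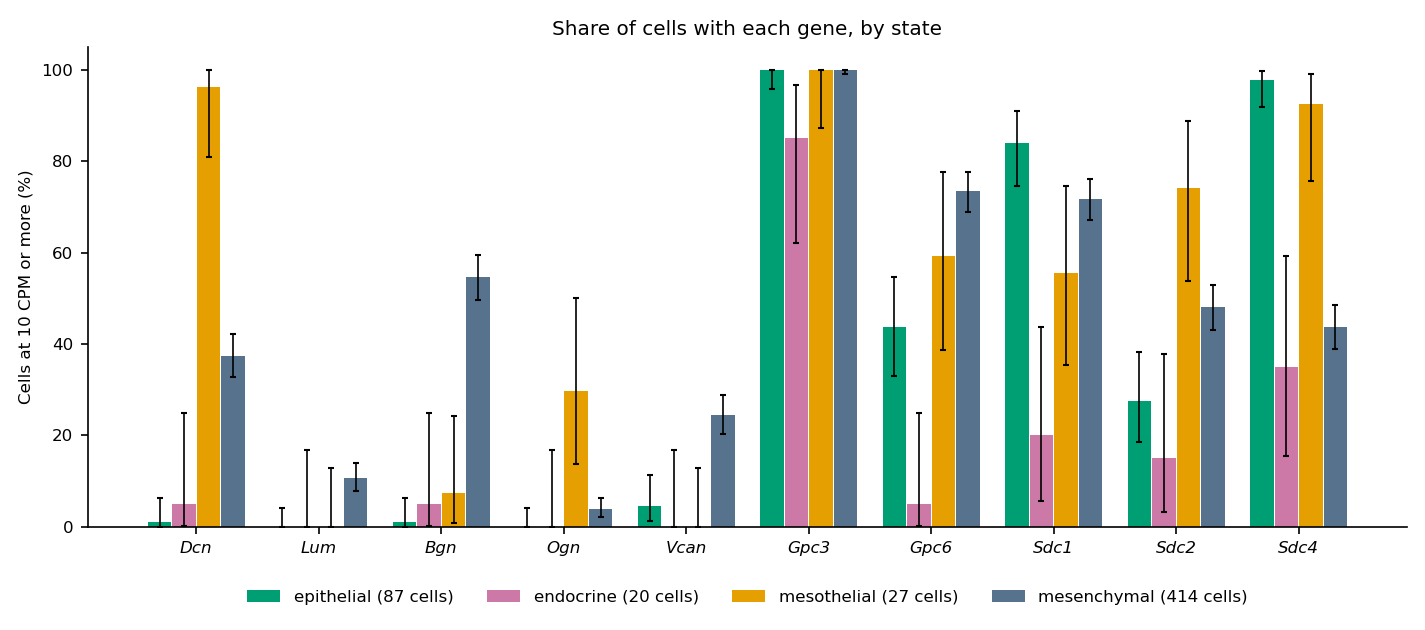
Percent of cells with at least 10 CPM of each member, by state, with exact 95% binomial intervals. Gpc3 is at 100% in 3 states, Sdc4 at 97.7% in epithelium against 43.7% in mesenchyme, and Bgn at 54.6% in mesenchyme against 7.41% or less elsewhere.

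Depth differed between cells, so each was also thinned to 100000 counts, where 1 count is worth 10 CPM, and no passing cell was too shallow to be thinned. Over the 10 members and 4 states, the shares that moved most were Ogn in mesothelium, from 29.6% to 40.7%, and Sdc1 in mesothelium, from 55.6% to 48.1%. Sdc4 in epithelium stayed at 97.7% and Bgn in mesenchyme went from 54.6% to 55.1%.

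**Figure D3:**
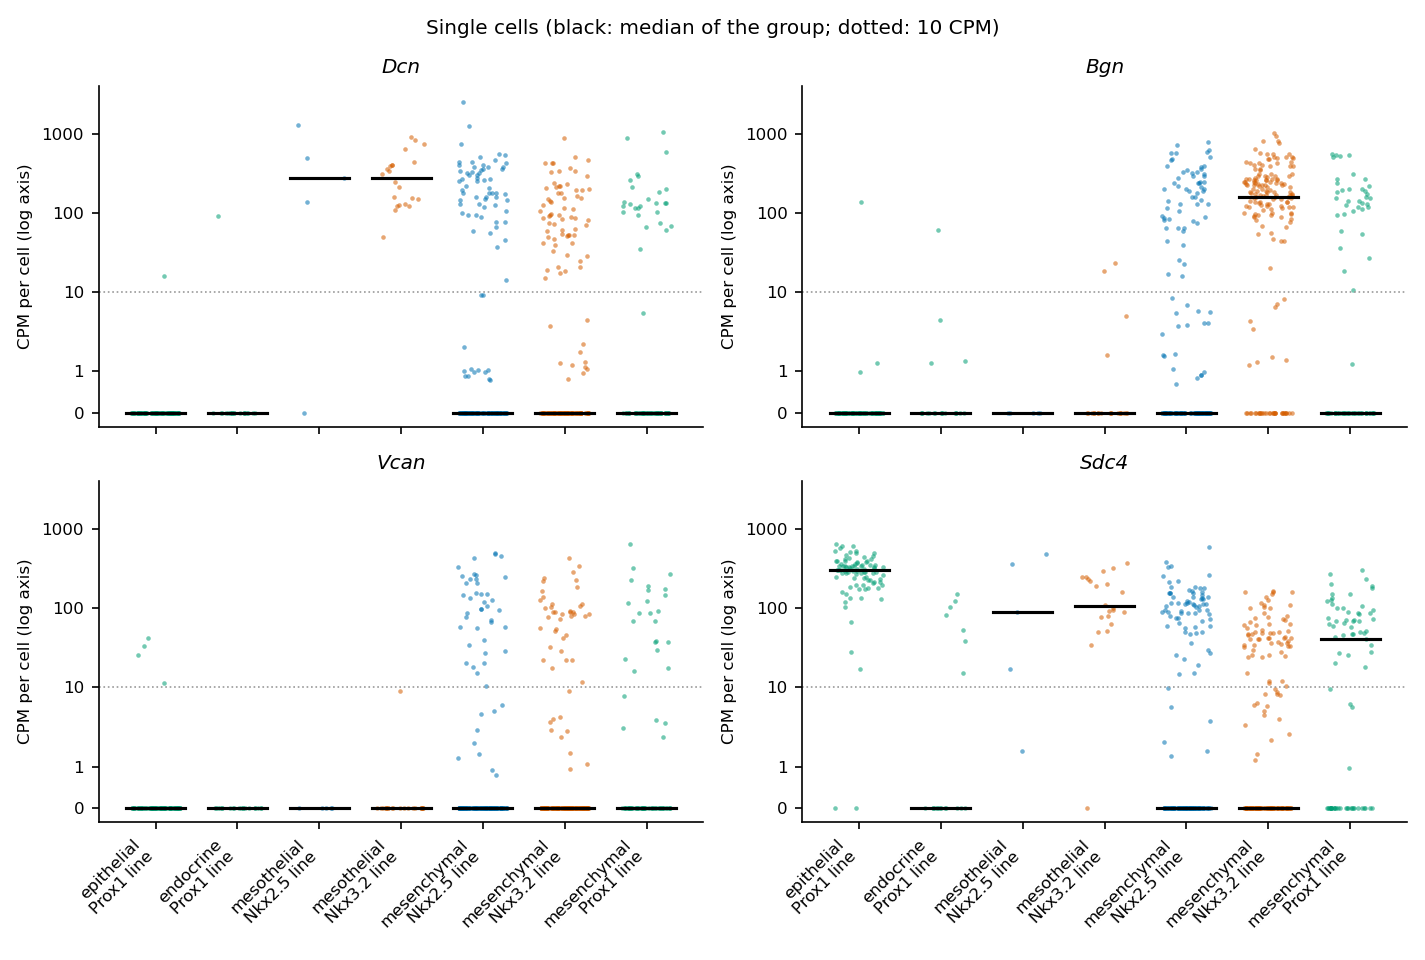
CPM of Dcn, Bgn, Vcan and Sdc4 in single cells (log axis, zeros and values near 0 at the bottom) by state and line, with black bars at the medians and a dotted line at 10 CPM. Dcn lies above the line in 26 of 27 mesothelial cells, and Bgn and Vcan leave most epithelial and mesothelial cells at 0.

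Epithelium was compared with mesenchyme within the Prox1-GFP plates, which held both. A gene counted as past the fold where both plates differed by at least 2-fold in 1 direction and the higher side held 5 CPM or more. Of the 9 members at that level, 6 were lower in epithelium and 1 higher, against 11.5% and 12.2% of all 12103 genes. Ogn did not reach 5 CPM (0 in epithelium against 2.03 in mesenchyme). The matrix members were the most unequal: Dcn was at 0.217 against 79.3 CPM (365-fold), Lum at 0.109 against 31.7 (291-fold), Bgn at 1.41 against 96.5 (68.3-fold) and Vcan at 1.20 against 38.4 (32.1-fold). On the cell surface Gpc6 was 5.41-fold lower (35.3 against 191.04 CPM) and Sdc2 6.02-fold lower (16.4 against 98.6 CPM), while Sdc4 was 5.30-fold higher (300 against 56.7 CPM). Gpc3 was 2.16-fold lower over both plates, but by −1.54 and −0.74 on the log2 scale in each, so it was not past the fold, and Sdc1 was 1.10-fold higher. Without the cell with the highest CPM of the gene on each side of each plate, Lum was no longer past the fold. It was also lost without plate 8A, and Gpc3 passed without plate 8B.

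Mesothelium was compared with mesenchyme within each Cre line. By the same limits, 3 of 10 members were higher in both lines and 4 lower, against 6.69% and 9.96% of 11902 genes. Dcn was 4.29-fold higher (370 against 86.2 CPM), by 4.40-fold in the Nkx2.5 line and 5.68-fold in the Nkx3.2 line. Sdc4 was 4.197-fold higher (164.1 against 39.1 CPM), by 3.94-fold and 6.23-fold. Ogn was 4.29-fold higher (22.2 against 5.18 CPM), but not past the fold without the highest cell on each side. Lum (99.7-fold), Bgn (90.7-fold), Vcan (66.1-fold) and Gpc6 (2.58-fold) were lower. Gpc3 was 1.60-fold lower, Sdc1 1.93-fold lower and Sdc2 1.12-fold higher, none past the fold. The Nkx2.5 side held 5 mesothelial cells, of which 1 gave 60% of their Dcn counts, and their Dcn level was 249 CPM without it, against 482 CPM with it.

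**Figure D4:**
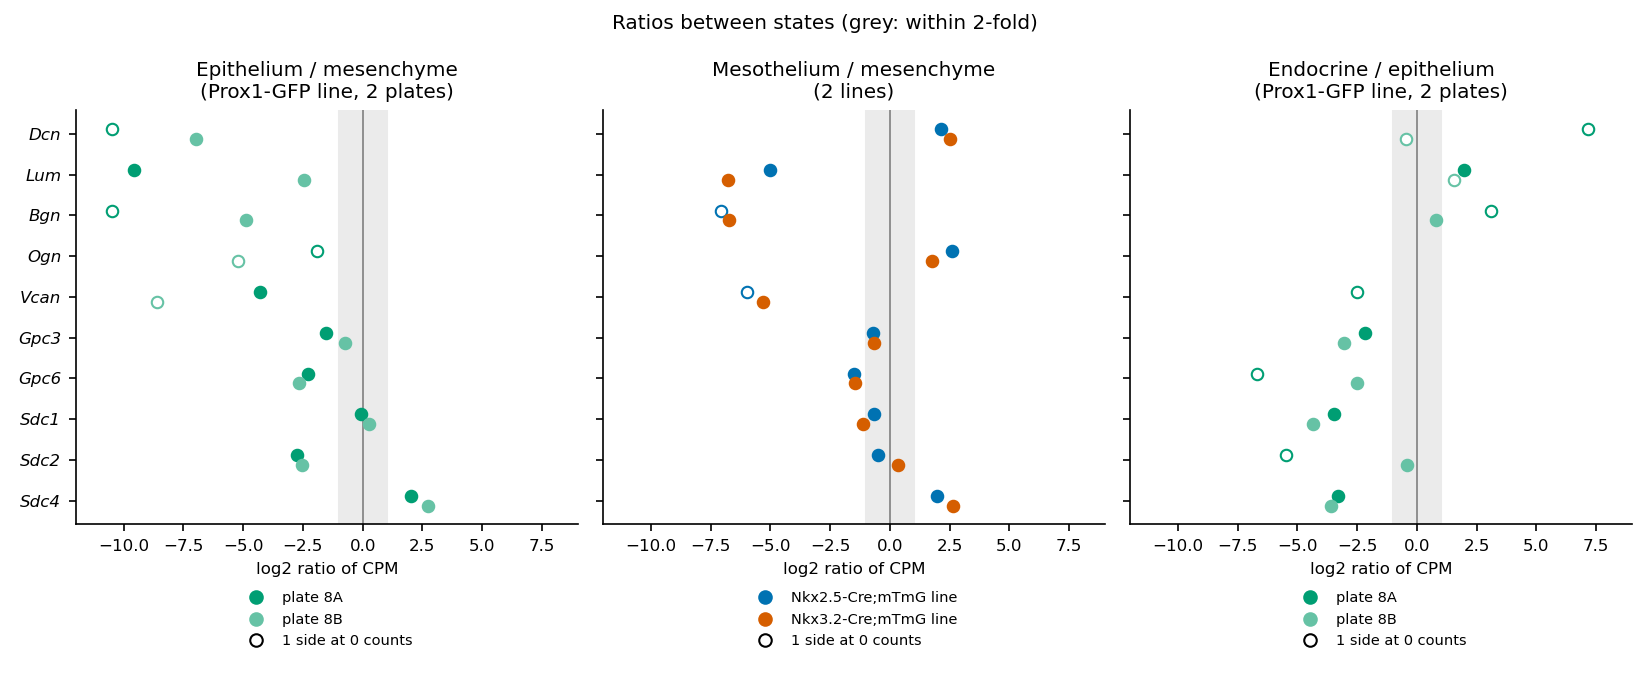
Log2 ratio of CPM for each member within each plate or line, for epithelium against mesenchyme, mesothelium against mesenchyme and endocrine cells against epithelium, with a grey band within 2-fold and open points where 1 side held 0 counts. Bgn, Lum and Vcan are below the band in both of the first comparisons, Sdc4 is above it in both, and Dcn is below it in the first and above it in the second.

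Dcn and Sdc4 thus occurred together in mesothelium. In a set chosen after the values were seen, cells with Dcn and Sdc4 at 10 CPM but none of Bgn, Lum or Vcan made up 24 of 27 mesothelial cells (88.9%), 17 of 414 mesenchymal cells (4.11%), 1 of 87 epithelial and 1 of 20 endocrine cells. At least 1 small leucine-rich member was at 10 CPM in 298 mesenchymal cells (71.98%), 26 mesothelial cells, 2 epithelial and 2 endocrine cells. Dcn and Lum are neighbours on chromosome 10, 46984 bases apart. Of the mesenchymal cells 28 had both (6.76%), 30.7% had Dcn alone of the pair and 16 (3.86%) Lum alone. At least 1 syndecan was at 10 CPM in 86 of 87 epithelial, 27 of 27 mesothelial, 375 of 414 mesenchymal and 12 of 20 endocrine cells. All 3 syndecans shared a cell in 20 epithelial (22.99%), 12 mesothelial (44.4%), 71 mesenchymal (17.1%) and 0 endocrine cells. The median cell held 5 of the 10 members in mesenchyme and mesothelium, 4 in epithelium and 2 in endocrine cells.

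Endocrine cells, the hormone lineage that leaves the epithelium, were set against the rest of the epithelium on the same plates in a comparison added after the data were seen. They held less of the cell surface members: Gpc3 was 6.15-fold lower (237 against 1460 CPM), Gpc6 12.4-fold lower (2.84 against 35.3), Sdc1 14.9-fold lower (10.9 against 163.3) and Sdc4 10.96-fold lower (27.4 against 300). Sdc2 was 2.74-fold lower and not past the fold, and Gpc6 was not past it without proliferating cells. These were 4 of 5 members at 5 CPM or more, against 16.8% of 12404 genes lower and 14.2% higher. The other 5 were under 5 CPM on both sides. The glypican next to Gpc3 on chromosome X, Gpc4, went the other way, at 128.7 CPM in endocrine cells against 4.62 CPM in epithelium.

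Cells with Mki67 or Top2a, genes of dividing cells, at 20 CPM or more made up 58.6% of epithelial, 41.3% of mesenchymal and 25% of endocrine cells. In the epithelium Gpc6 was 4.68-fold higher in these cells than in the others (50.98 against 10.9 CPM, with log2 differences of 1.68 and 4.86 by plate) and Sdc1 2.46-fold higher (213 against 86.4 CPM, 1.47 and 1.10 by plate). They were 2 of 5 members at 5 CPM or more, against 4.17% of 11599 genes higher and 4.91% lower. With states taken from clusters, Gpc6 passed the fold and Sdc1 did not. Gpc3 and Sdc4 differed by 1.05-fold each. In the mesenchyme none of the 10 was past the fold in all 6 plates, against 1.62% of 11313 genes higher and 0.0442% lower. Gpc3 was 1.24-fold lower, with every plate between −0.49 and −0.23 on the log2 scale. Over all lines Dcn was at 54.9 against 105.7 CPM, Sdc4 at 30.7 against 49.4 and Ogn at 1.20 against 7.07. Lum (28.5 against 19.1 CPM) and Vcan (36.4 against 29.2 CPM) were higher in dividing cells, and the other members lower.

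Lines were compared in mesenchyme, where a gene had to differ by 2-fold in all 4 pairs of plates. Bgn was the 1 member past it, 2.53-fold lower in the Nkx2.5 line than in the Nkx3.2 line (78.9 against 199 CPM), against 3.93% of 11364 genes. The closest pair of plates was at the 2-fold limit itself, and Bgn was not past it with median-of-ratios scaling, with the mean of cell CPM, after thinning or without proliferating cells. The share of cells at 10 CPM was 35.7% (28.5 to 43.5) in Nkx2.5, 46.8% (35.3 to 58.5) in Prox1 and 76.9% (69.8 to 83.05) in Nkx3.2. The median number of genes per mesenchymal cell was also lowest in Nkx2.5, at 5745.5 against 6324 in Prox1 and 7215 in Nkx3.2. Median counts per mesenchymal cell were highest in Nkx2.5, at 1054465, against 897243 in Nkx3.2 and 796126 in Prox1. Sdc2 also had a lower share of cells at 10 CPM in Nkx2.5 (36.9%) than in Nkx3.2 (57.4%), while Gpc3 was at 100% in both. Sdc4 shares were 43.9% in Nkx2.5 against 26% in Nkx3.2 in dividing cells, and 41.4% against 48.9% in the others. The part of the lower gene number in the Bgn share was not tested. Prox1 mesenchyme had no member past the fold against Nkx3.2 (3.7% of 11434 genes) or Nkx2.5 (3.5%). Sdc4 was 2.31-fold higher in Prox1 than in Nkx3.2 (56.7 against 24.5 CPM) and 2.12-fold higher in Nkx2.5 than in Nkx3.2, without 2-fold in every pair of plates, and Dcn was 1.83-fold higher in Nkx2.5 than in Nkx3.2. Gpc3 differed least, at 3196, 3219 and 3155 CPM in the Nkx2.5, Nkx3.2 and Prox1 mesenchyme. Makeup by cluster differed between the lines, and its part in these values was not tested.

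Mesenchymal cells fell into 7 clusters when the members were left out of the genes used for clustering. Clusters 2, 6 and 9 had markers of the classes M-PI (proliferating), M-VSM (vascular smooth muscle) and M-III and are called M-PI-like, M-VSM-like and M-III-like, and the others stay unnamed. Of the 10 members 7 ranged over at least 2-fold between clusters, but so did 68.6% of 12623 genes, from which the clusters were drawn in part. Vcan ranged widely, from 81.2 CPM in M-III-like cells (27 cells) to 2.90 CPM in cluster 5 (49 cells), where 2 cells reached 10 CPM. At the coarser resolution of 1.0, with 6 clusters, its range was 4.49-fold and its lowest level 22.1 CPM. Cluster 5 was low in all 3 lines, at 0.3 CPM of Vcan in Nkx2.5, 4.5 in Nkx3.2 and 4.1 in Prox1, and M-III-like cells were high in both lines with at least 5 of them, at 77.4 CPM in Nkx3.2 and 89.9 in Prox1. One M-III-like cell gave 31.3% of its counts, and the level was 58.2 CPM without it.

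Other members peaked elsewhere. Dcn was at 177.7 CPM in cluster 1, of which 66 of 79 cells were of the Nkx2.5 line, and at 165.04 CPM in M-VSM-like cells, against 23.2 CPM in M-III-like cells. Within cluster 1 the Nkx2.5 cells held 200 CPM of Dcn and the 6 Nkx3.2 cells 38.3 CPM. Bgn was highest in M-VSM-like cells, of which 32 of 39 were of the Nkx3.2 line, at 246 CPM against 55.5 CPM in M-III-like cells. Ogn was at 39.3 CPM in M-VSM-like cells and 2.73 CPM or less in the other 6 clusters, but 7 of these 39 cells reached 10 CPM and 1 gave 41.8% of the counts (23.5 CPM without it). Lum ran from 48.5 CPM in M-PI-like cells to 4.17 CPM in M-III-like cells, Gpc6 from 209 CPM in cluster 0 to 66.9 CPM in cluster 5, and Sdc4 from 72.4 CPM in M-III-like cells to 25.04 CPM in cluster 5. Gpc3 (1.44-fold), Sdc1 (1.71-fold) and Sdc2 (1.95-fold) stayed within 2-fold over all lines. Without the Nkx2.5 line Sdc1 ranged over 4.57-fold and Sdc2 over 3.53-fold. Cluster 1 was then lowest in Sdc1 (48.7 CPM) and highest in Sdc2 (175.6 CPM), with only 6 Nkx3.2 and 7 Prox1 cells. Sdc2 ranged over 2.44-fold without Nkx3.2 and 3.34-fold without Prox1. Without the Prox1 line Lum was highest in M-VSM-like cells (52.2 CPM) and lowest in cluster 3 (4.68 CPM).

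**Figure D5:**
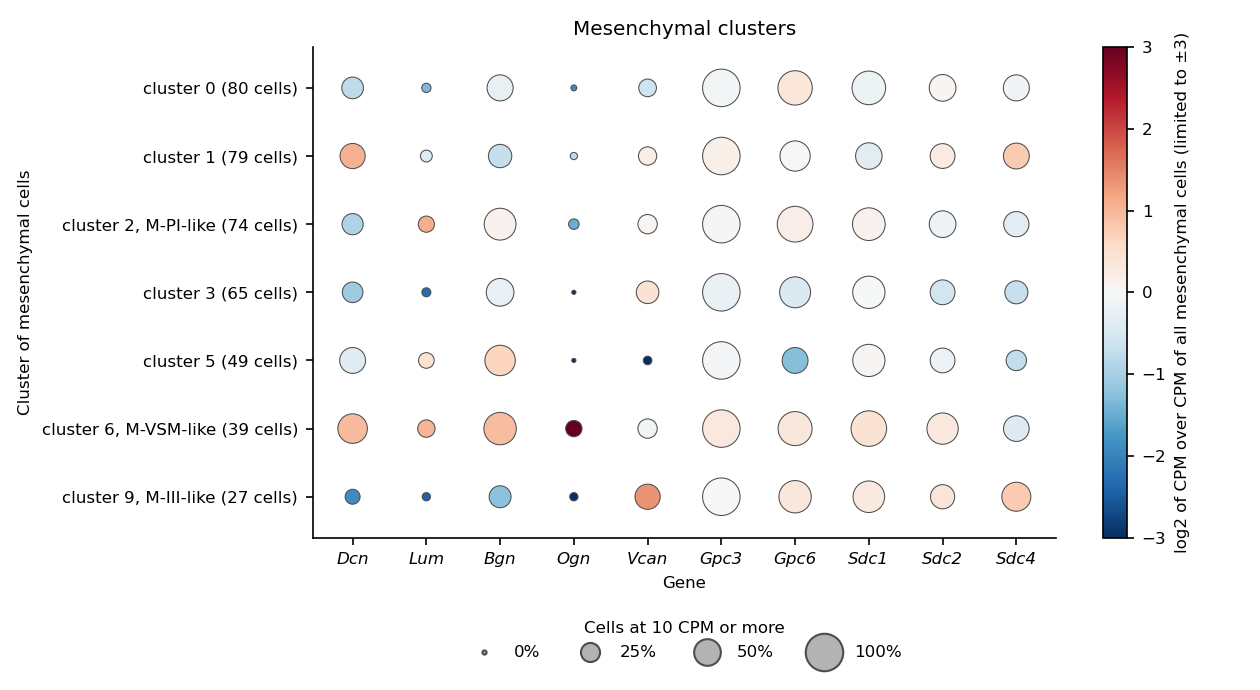
Dot plot of the 10 members over the 7 mesenchymal clusters, with dot size for the percent of cells at 10 CPM and colour for log2 of CPM over that of all mesenchymal cells. Ogn stands out in cluster 6 (39.3 CPM), Vcan in cluster 9 (81.2 CPM) and at its lowest in cluster 5 (2.90 CPM), while Gpc3 is even.

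The epithelium held 2 clusters. Cluster 4 (56 cells), with Ptf1a, a factor of the acinar lineage, among its leading genes, had 1685 CPM of Gpc3, 173.4 of Sdc1, 308 of Sdc4, 39.5 of Gpc6 and 12.3 of Sdc2. Cluster 7 (30 cells) had 1021, 147.6, 296, 27.5 and 26.2 CPM. Its leading genes were Neurog3, the endocrine progenitor factor, then Dcdc2a, Fxyd2, Gm8773, Anxa2 and Cxcl12, and it stays unnamed. Of the endocrine markers, Neurog3 was at 109.3 CPM over all epithelial cells and each other one at 3.56 CPM or less. Their sum was 1.11 CPM in the median epithelial cell and 5065 CPM in the highest. Sdc4 was thus nearly level between the 2 clusters, and 10.96-fold lower in the endocrine cells.

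Other genes of proteoglycan biology were counted by the same rule. Between epithelium and mesenchyme, the other proteoglycans gave 2 higher and 7 lower of 14 at 5 CPM, with a median log2 ratio of −0.81 against 0.00 over all genes. Of the 12103 genes compared 12.2% were higher and 11.5% lower, which is the background for each list here. Collagen XVIII (Col18a1), a basement membrane proteoglycan, was at 131.1 against 28.5 CPM, and aggrecan (Acan) at 41.3 CPM against 0 counts in mesenchyme. The surface proteins Tgfbr3 (6.06 against 75.7), Gpc4 (4.62 against 48.6) and Gpc1 (12.8 against 103.5) were lower in epithelium. The enzymes that modify the chains gave 2 higher and 8 lower of 17, with a median of −2.60: Sulf1, which takes 6-O-sulphate off heparan sulphate, was at 0.61 against 70.8 CPM, Hs6st2, which adds it, at 1.33 against 61.7, and Hs6st1, which also adds it, at 34.7 against 3.73. Those that build the linker and the chains gave 1 and 1 of 14 (median 0.13), the hyaluronan genes 1 and 0 of 4 (0.41) and the proteases and release enzymes 2 and 2 of 10 (−0.65), with the versican and aggrecan protease Adamts1 at 715 against 106.6 CPM.

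Between mesothelium and mesenchyme the other proteoglycans gave 4 higher and 2 lower of 15 (median −0.03 against −0.01 over all genes), where 6.69% of all genes were higher and 9.96% lower. Fibromodulin (Fmod), a small leucine-rich protein, was at 170 against 1.39 CPM, and Col18a1 at 283 against 13.3. Chain modification gave 3 higher and 4 lower of 19 (−0.40). Its 2 Sulf genes went opposite ways, Sulf1 at 944 against 37.5 CPM and Sulf2 at 131.02 against 385 CPM. Linker and chain genes gave 1 and 3 of 16 (−0.29), hyaluronan genes 0 and 1 of 5 (−0.15) and cleavage genes 0 and 3 of 11 (−0.76), with Adamts15 at 9.85 against 58.2 CPM. Between the endocrine cells and the epithelium, the other proteoglycans gave 8 higher and 4 lower of 16 (1.34), against 14.2% and 16.8% of all genes, and the cleavage genes 1 and 5 of 8 (−2.71), with Adamts1 at 0.0604 against 715 CPM, from 1 count in the 20 endocrine cells. Hyaluronan genes gave 1 higher and 3 lower of 5 (−1.70), linker and chain genes 1 and 2 of 15 (−0.25) and chain modification 2 and 1 of 14 (0.65), against −0.08 over all genes. In the mesenchyme few genes of these lists passed the fold. Between Nkx2.5 and Nkx3.2 Gpc2 was the 1 gene past the fold (lower), Cspg5 was higher in Prox1 than in both other lines, Gpc2 lower and Adamts9 higher in Prox1 than in Nkx3.2, and Hapln3 and Chst11 lower in Prox1 than in Nkx2.5. In dividing mesenchymal cells the hyaluronan receptor Hmmr, a gene of the mitotic spindle, was the 1 listed gene past the fold (higher). In dividing epithelial cells Hmmr, Gpc4, Csgalnact2 and Chsy1 were higher and Spock3, Extl1, Chsy3, Chpf2, Ndst4, Mmp14 and Bmp1 lower.

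The genes whose levels ran most like each member were found by Pearson correlation of log2(CPM + 1) over 11 groups of state and plate, among 11356 genes. The first for each were Sema3a for Dcn (0.968), Rgcc for Lum (0.941), Cpa4 for Bgn (0.977), Laptm4b for Ogn (0.957), Mamdc2 for Vcan (0.989), Acot9 for Gpc3 (0.993), Tcim for Gpc6 (0.985), Clspn for Sdc1 (0.989), Tmem101 for Sdc2 (0.985) and Dtx4 for Sdc4 (0.945). The groups share plates, depth and cell states, so these are descriptions. Between single mesenchymal cells the members ran almost apart: over all pairs of members and 3 lines, Spearman correlations lay between −0.28 and 0.34, and Dcn with Lum gave 0.15 in the Nkx2.5 line, 0.25 in Nkx3.2 and 0.23 in Prox1.

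By GENCODE M21 (GRCm38), Dcn (chr10:97479609-97518143, + strand) and Lum (chr10:97565128-97572703, + strand) are followed by Kera and Epyc, which were at 0 counts in all 4 states. Ogn (chr13:49608046-49624501, + strand) lies 15223 bases from Omd and within the span of Cenpp on the opposite strand, and its small leucine-rich neighbours Omd, Aspn and Ecm2 stood at 2.69 CPM or less in every state. Gpc3 (chrX:52272426-52613950, − strand) and Gpc4 lie 107173 bases apart, and Gpc6 (chr14:116925315-117976544, + strand) lies 400135 bases from Gpc5, which was at 7.49 CPM or less. The others are Bgn (chrX:73483602-73495933, + strand), Vcan (chr13:89655312-89742509, − strand, with Gm16318 opposite), Sdc1 (chr12:8771323-8793715, + strand), Sdc2 (chr15:32920723-33034935, + strand) and Sdc4 (chr2:164424247-164443887, − strand).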

How the data were processed

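Single GFP+ cells of the E12.5 dorsal pancreas were profiled by Smart-seq2. The authors trimmed reads with Trim Galore 0.6.5 and quantified them with kallisto on GRCm38, per the labels and the study's methods, and the deposited unit is an unscaled estimated count for every gene in every cell. Fractional values made up 36.13% of those above 0. The version of kallisto is not given in the sources used here.

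From these estimated counts, kept unrounded and summed over the cells of a state, line or plate, CPM (counts per 1000000) were computed, with exact Poisson intervals for CPM and Clopper-Pearson intervals for shares of cells, both at 95%. Of 36658 identifiers, 35866 had a symbol in GENCODE M21, and the other 792 held 0.605% of counts. Cells were kept with at least 100000 counts, at least 1000 genes and at most 30% mitochondrial counts (13 genes), which left 549 of 576. No doublet caller was run, and cells carrying markers of 2 states are placed by the order that follows. A cell was epithelial with 3 of 7 markers at 10 CPM, endocrine with 4 of 8 among these, else mesothelial with 2 of 5, else mesenchymal with 2 of 7. At these limits lay 1 epithelial, 1 endocrine, 5 mesothelial and 8 mesenchymal cells, and 13 cells were 1 marker short of mesothelial. These limits were set after seeing the data, and 546 cells had the state of their cluster's majority.

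Clusters came from Seurat 5.3.0 in R 4.3.3 at resolution 1.9 on 20 components, after regressing out the S minus G2/M score, with the members left out of the variable genes. Class names rest on lists that the study took from these cells, and so are not independent. A fold against fewer than 3 counts used a limit of 3 counts. A gene was past the fold with at least 2-fold in every plate or line compared and 5 CPM on the higher side. Summaries used Python 3.11.15, numpy 2.4.6, pandas 2.3.3, scipy 1.17.1 and matplotlib 3.10.9. The code for the calls was run on simulated Poisson counts, with 4-fold changes placed in genes at 20 CPM or more. Such counts lack the spread between cells seen here, so they do not test the 2-fold rule at 5 CPM.

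The members and gene lists were chosen with earlier results of these data known. Levels by state are given for all 10 members. Each comparison counted the members that reached 5 CPM and names those past the fold, but not always all of the others. Of each list, genes named with their levels in a comparison were among those with at least 20 CPM in a state and the largest ratios, and for likeness the first of 3. List genes named without levels are those past the fold. The endocrine and proliferation comparisons, and the sets of members per cell, were added after the data were seen. Alternatives are given in the closing section. The spatial data and published single-cell sets of the study were not analysed here.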

Additional observations from a re-analysis of the deposited data

Results flagged for a closer look

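The 27 wells that failed the filters, used in no comparison, held 312 counts of the 10 members out of 258922 counts in all (0.1205%), of which 253 were of Gpc3 in 5 wells. The 1 cell with no state, from plate 8A of the Prox1-GFP line and with 4 of 4 immune markers at 10 CPM, had 192.7 CPM of Sdc4, 1.79 CPM each of Dcn and Bgn, and no count of the other 7 members.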

How the results depend on the processing

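Between lines no paired analysis was possible, because the plates of different lines share only a letter and each line is 1 sample with no test. States were compared within plates or within lines, also without a test. Of the 7 members past the fold between mesothelium and mesenchyme, 4 were past a fold of 4. Between Nkx2.5 and Nkx3.2 mesenchyme, where 1 member (Bgn) was past the fold, 0 were with median-of-ratios scaling, the mean of cell CPM, thinning to 100000 counts, a fold of 4 or without proliferating cells, and 2 were at a fold of 1.5, so the Bgn difference lies at the limit. Between Prox1 and Nkx3.2 (0), 2 were at a fold of 1.5 and 1 (Bgn) without proliferating cells. Of the 7 members with a 2-fold range over mesenchymal clusters, 1 had it when cells were gated by marker pairs. These gates overlap, with 376 of 414 mesenchymal cells in Gap43 or Syt6 and 359 in Acta2 or Rgs5. Groups that share most of their cells cannot show whether the cluster ranges hold. Leaving out 1 plate gave 6 to 8 members between epithelium and mesenchyme (Lum lost without 8A, Gpc3 gained without 8B), 7 to 8 between mesothelium and mesenchyme, 1 to 3 between Nkx2.5 and Nkx3.2 (3 without 6A), 0 to 3 between Prox1 and Nkx3.2 (2 without 7B or 8A, 3 without 8B) and 0 to 1 between Prox1 and Nkx2.5. No member past the fold turned its direction, but Lum in Prox1 mesenchyme was below both other lines without 8A and above both without 8B. The other 58 recomputed counts stayed within 1.5 times, and the cause of the changes was not tested. Of the values for single members, 407 planned ones moved beyond their counting interval, which is narrow at these counts, and 751 did not, against 56 and 24 of the added ones.
Limits are that each line is 1 sample, that the 27 mesothelial cells, 5 of them in the Nkx2.5 line, and the 20 endocrine cells are few, and that Lum and Ogn rest on few cells. Without the cell highest in each gene, a setting chosen after seeing the data, Lum (epithelium) and Ogn (mesothelium) were no longer past the fold.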
